A study of Mus musculus with 4 samples.

Results

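In leukaemic mouse bone marrow cells, 30 of 23240 gene rows were close to silent in the solvent cultures and clearly expressed in the cultures with 4-hydroxytamoxifen (4OHT). A gene was counted as switched on when its RPKM, the reads per kilobase of gene and per 1 M mapped reads, was under 1 in both solvent (EtOH) libraries and at least 3 in both 4OHT libraries. Of 13643 rows under 1 RPKM in both EtOH libraries, 33 (0.242%) met these thresholds, and Tmem173, Cd244 and Emx2 were then left out by name, as were Gzmb, Dpp4 and Il6, which did not meet them. Because the 4OHT and EtOH values chose these genes, their change with 4OHT is given as a description and was not tested. The reverse pattern, at least 3 RPKM in both EtOH libraries and under 1 in both 4OHT libraries, was held by 33 rows.

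All 4 libraries came from cells that the labels call RUNX1-FLT3ITD AML, an acute myeloid leukaemia, sorted for GFP and BFP and against CD11b and Gr1, which mark maturing myeloid cells. Total RNA was sequenced after 22 h of culture in FLT3L, SCF, IL3 and IL11, with 200 nM 4OHT added or EtOH of equal volume. Each treatment held 1 library of Runx1 delta/delta cells (replicate 1) and 1 of Runx1 delta/+ cells (replicate 2), so no genotype had a replicate within a treatment. The labels do not say which protein 4OHT acts on, nor which cell type carried the Runx1 deletion, nor how many animals gave the cells, so the spread between libraries may be partly technical. Depth recovered from the values was 33.7 to 39.4 M mapped reads, and 1 read in a gene of 1 kb was worth 0.0254 to 0.0297 RPKM. The library of 4OHT delta/delta cells held 6638 rows above 0 but under 1 RPKM, against 3989 to 4608 in the others. Itgam, which encodes CD11b, had 0.168 to 0.358 RPKM in the 4 libraries in cells sorted as negative for it. Runx1 was read in every library, at 568 and 380 RPKM in EtOH and 4OHT delta/delta cells and 555 and 328 RPKM in delta/+ cells; whole-gene values do not test a deletion of part of a gene.

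As background, 4OHT is the active form of tamoxifen and serves as a switch for engineered proteins that carry part of the oestrogen receptor. RUNX1 is a transcription factor of blood stem and progenitor cells that binds short DNA words of the form TGTGGT or TGCGGT, and FLT3-ITD is a duplication that leaves the FLT3 receptor kinase active.

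The promoter letters of 4 of the genes are shown because Fut7 and Clic3 lie on either side of a single gene, Ptpn13 is another that holds a RUNX word, and Metrnl is the most abundant of the 30. Each is the 250 bases before a RefSeq start site, 5′ to 3′ on the + strand of GRCm38.p6, which is not the mm9 build of the deposited values. Capitals mark both RUNX words and their reverse complements. They are Fut7 at chr2:25422992-25423241, Clic3 at chr2:25456593-25456842, Ptpn13 at chr5:103424942-103425191 and Metrnl at chr11:121702177-121702426.
Fut7: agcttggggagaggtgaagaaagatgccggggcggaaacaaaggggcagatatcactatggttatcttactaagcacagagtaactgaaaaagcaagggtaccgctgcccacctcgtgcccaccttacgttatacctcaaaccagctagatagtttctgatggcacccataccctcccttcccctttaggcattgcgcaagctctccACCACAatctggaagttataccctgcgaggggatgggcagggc
Clic3: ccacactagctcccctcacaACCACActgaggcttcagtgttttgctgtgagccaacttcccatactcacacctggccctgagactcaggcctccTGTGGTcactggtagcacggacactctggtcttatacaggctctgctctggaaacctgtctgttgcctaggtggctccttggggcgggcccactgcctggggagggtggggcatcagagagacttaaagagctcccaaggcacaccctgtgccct
Ptpn13: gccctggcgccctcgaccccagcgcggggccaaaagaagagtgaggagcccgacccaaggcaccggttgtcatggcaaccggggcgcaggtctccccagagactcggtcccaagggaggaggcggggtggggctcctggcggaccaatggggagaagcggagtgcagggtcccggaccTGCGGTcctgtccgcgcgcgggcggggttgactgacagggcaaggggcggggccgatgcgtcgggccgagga
Metrnl: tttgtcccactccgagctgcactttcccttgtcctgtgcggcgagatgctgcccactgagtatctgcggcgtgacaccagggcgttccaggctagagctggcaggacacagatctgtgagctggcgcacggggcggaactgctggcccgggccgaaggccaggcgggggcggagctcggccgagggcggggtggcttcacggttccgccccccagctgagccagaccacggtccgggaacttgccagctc
The word began at -43 in Fut7, at -230 and -155 in Clic3 and at -72 in Ptpn13, counted back from the start site, and Metrnl held none. Fut7 has another RefSeq start site, and the 250 bases before it (chr2:25423444-25423693), not shown, held none either.

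Promoters of 300 bases, 250 before to 50 after the start, were in the RefSeq table for 24 of the 30 genes (28 promoters) and for 27025 genes in all. On either strand, TGTGGT or TGCGGT lay in a promoter of 6 of the 24 genes (25%), Clcn5, Clic3, Fut7, Hpdl, Lipt2 and Ptpn13, against 25% of all genes. The ETS letters GGAAGT lay in 6 of 24 (25%) against 26.5%. The other words lay in only 2 (GATA, C/EBP) or 1 (AP-1, STAT, MYC E-box) of the 24 genes. Their shares were lower than among all genes but rest on these few genes. The GATA letters AGATAA or TGATAA lay in 8.33% against 21%, the AP-1 letters TGANTCA in 4.17% against 8.97%, and the STAT letters TTCNNNGAA in 4.17% against 9.55%. The MYC E-box CACGTG lay in 4.17% against 8.09%, and the C/EBP letters TTGCGCAA or TTGCNNAA, of which the first is also a case of the second, in 8.33% against 12.2%. Median GC content of the upstream bases was 58.4% for the 28 promoters and 52.4% for all 32851. A match is a description of letters and not a bound site.

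Over the 30 genes, EtOH levels had a median of 0.415 RPKM in delta/delta cells (0.0147 to 0.9) and 0.582 RPKM in delta/+ cells (0.105 to 0.98). In 4OHT the medians were 4.48 RPKM (3.03 to 27.7) and 5.08 RPKM (3.08 to 19.2). These were modest levels in 4OHT. The median RPKM of the 9595 genes tested (mean over libraries not under 1 RPKM) was 13.0 and 13.4 in the 4OHT libraries, and only 8 of the 30 reached 5 RPKM in both and 2, Metrnl among them, reached 10. In bulk RNA, more cells that express a gene and more RNA per cell cannot be told apart.

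**Figure D1:**
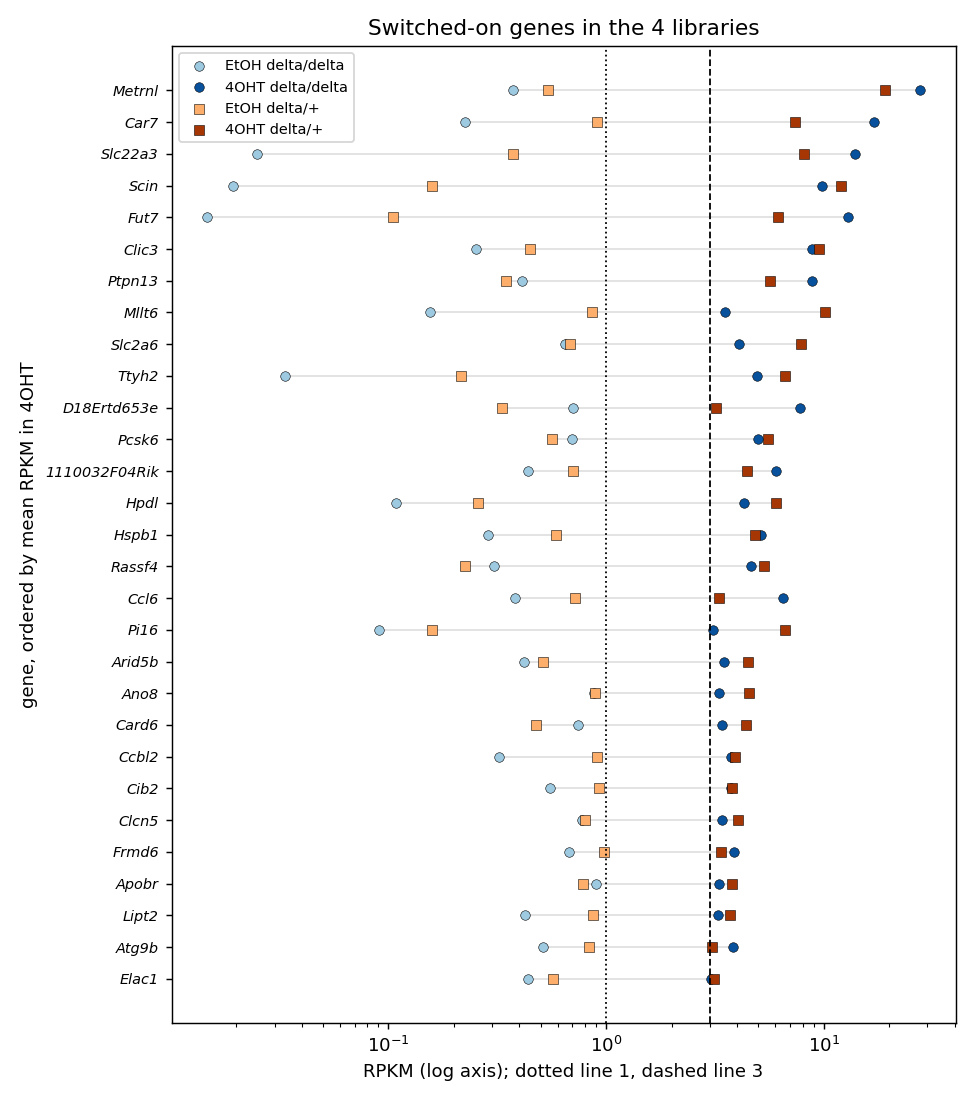
RPKM of 29 of the 30 genes (rows, ordered by mean 4OHT level) in the 4 libraries, 1 point per library, on a log axis. Every EtOH point lies left of the dotted line at 1 and every 4OHT point right of the dashed line at 3, as the choice of genes requires, and Metrnl is highest at 27.7 and 19.2.

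The genes were grouped by known function after they had been listed. The group of leukocyte signalling and traffic held 5. Of these, 4 are described. Fut7, the fucosyltransferase that finishes the selectin ligands leukocytes roll on, had 0.0147 and 0.105 RPKM in EtOH and 12.9 and 6.16 RPKM in 4OHT. The EtOH delta/delta value of Fut7 was a single read, so its fold of 881 has a 95% counting interval of 158 to 34853, and the delta/+ fold was 58.4. Ccl6, a CC chemokine of mouse myeloid cells, had 0.383 and 0.723 RPKM in EtOH and 6.5 and 3.29 in 4OHT. Apobr, a macrophage receptor for lipoproteins, had small folds of 3.67 and 4.85. Card6, a caspase recruitment domain protein, had folds of 4.6 and 9.26.

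Transporters and channels made up 6 genes. Slc22a3, the organic cation transporter that clears monoamines outside neurons, had 0.0248 RPKM in EtOH delta/delta cells (3 reads) and 14.0 in 4OHT, and 0.373 and 8.14 RPKM in delta/+ cells. Its folds were 563 (192 to 2733) and 21.8. Ttyh2, of the tweety family of membrane proteins, had 0.0335 and 0.215 RPKM in EtOH and 4.93 and 6.66 RPKM in 4OHT. Clic3, a chloride intracellular channel protein, had 0.253 and 0.446 RPKM in EtOH and 8.89 and 9.53 RPKM in 4OHT, nearly the same in both genotypes. Slc2a6, a glucose transporter family member found in leukocytes, had 4.08 and 7.89 RPKM in 4OHT. Clcn5, the chloride and proton exchanger of kidney endosomes, and Ano8, an anoctamin, had EtOH levels of 0.777 to 0.892 RPKM and folds of 3.78 to 5.09.

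Secreted proteins and their processing held 3 genes. Metrnl, a hormone-like protein released by fat, muscle and macrophages, had 0.375 and 0.541 RPKM in EtOH and 27.7 and 19.2 RPKM in 4OHT, folds of 73.8 and 35.6. Pi16, a peptidase inhibitor known from fibroblasts and heart, had 0.0901 and 0.159 RPKM in EtOH and 3.1 and 6.67 RPKM in 4OHT. Pcsk6, a convertase that cleaves growth factor precursors, reached 4.99 and 5.55 RPKM.

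Metabolic and RNA enzymes held 5 genes, led by Car7, a cytosolic carbonic anhydrase of neurons. Car7 had 0.226 and 17.0 RPKM in EtOH and 4OHT delta/delta cells, and 0.907 and 7.37 RPKM in delta/+ cells. Its fold was 75.6 in the first genotype (counting interval 43.1 to 147) and 8.14 in the second (6.01 to 11.2). Intervals of the genotypes were apart for other genes too, such as Ccl6 and, with the larger fold in delta/+ cells, Card6. The intervals cover counting error only. Hpdl, a mitochondrial dioxygenase-like protein, had 0.108 and 0.259 RPKM in EtOH and 4.32 and 6.05 RPKM in 4OHT. Ccbl2, a kynurenine aminotransferase, Lipt2, an enzyme of lipoic acid synthesis, and Elac1, an RNA-processing nuclease, stayed between 3.03 and 3.92 RPKM in 4OHT.

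Cytoskeletal proteins and signalling scaffolds made up 6 genes. Scin, which severs actin filaments when calcium rises, had 0.0193 (2 reads) and 0.158 RPKM in EtOH and 9.8 and 12 RPKM in 4OHT, folds of 508 (140 to 4201) and 75.9. Ptpn13, a large tyrosine phosphatase with protein-binding domains, had 0.412 and 0.347 RPKM in EtOH and 8.86 and 5.66 RPKM in 4OHT. Rassf4, a Ras association domain protein, reached 4.64 and 5.31 RPKM. D18Ertd653e (Ldlrad4 in RefSeq), which dampens TGF-beta signalling, had 0.707 and 0.333 RPKM in EtOH and 7.79 and 3.2 RPKM in 4OHT. Frmd6, a membrane scaffold of the Hippo pathway, and Cib2, a calcium-binding protein needed in hair cells, had folds of 5.72 and 3.44 and of 6.86 and 4.09.

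The remaining 5 genes fell into smaller groups. Mllt6, a chromatin protein known as a fusion partner of MLL in leukaemia, had 0.155 and 0.861 RPKM in EtOH and 3.53 and 10.1 RPKM in 4OHT. Arid5b, a DNA-binding chromatin factor, had folds of 8.33 and 8.75. Hspb1, a small heat shock protein, reached 5.13 and 4.86 RPKM, and Atg9b, an autophagy membrane protein, 3.83 and 3.08 RPKM. No role is given here for 1110032F04Rik, which reached 6.05 and 4.43 RPKM.

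Size in each Runx1 genotype was not fixed by the choice of genes beyond the common thresholds. The fold of 4OHT over EtOH had a median of 14.5 in delta/delta cells (3.67 to 881) and 9.42 in delta/+ cells (3.44 to 75.9). It was at least 10 in both genotypes for 12 genes and under 10 in both for 11. The fold was larger in delta/delta cells for 21 genes and larger in delta/+ cells for 9. The share of all genes with a larger fold in delta/delta cells was not computed, so this count has no background. The levels in each treatment differed between genotypes as follows. EtOH RPKM was lower in delta/delta than in delta/+ cells for 24 of 30 genes (80%), against 56.1% of all 9595 genes tested, while 4OHT RPKM was higher in delta/delta cells for 12 of 30 (40.0%), against 49.6%. The median log2 ratio of delta/delta to delta/+ levels (RPKM + 1) in 4OHT was -0.07, against -0.00 for all genes tested, and in EtOH it was -0.17 against -0.07. The 4OHT levels of 21 genes were within 1.5-fold between genotypes. The share of all genes within 1.5-fold was not computed, so this count too has no background. Having to reach 3 RPKM in both 4OHT libraries favours similar levels. Whether 4OHT acted differently in the genotypes could not be tested, since each genotype has 1 library per treatment.

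**Figure D2:**
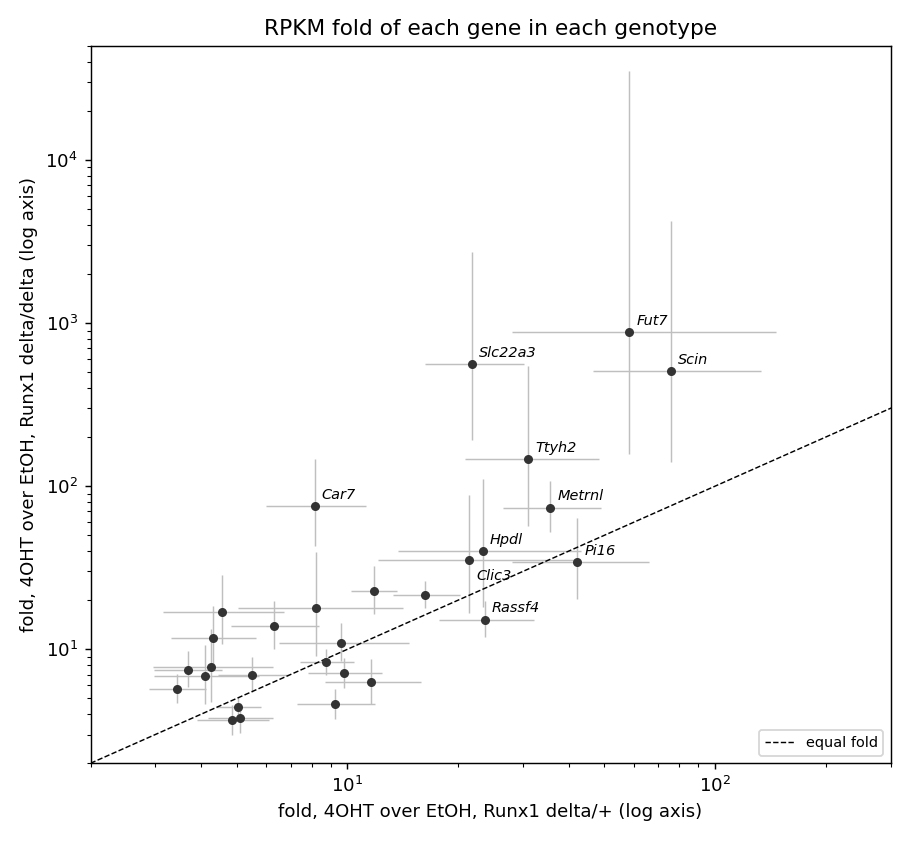
Fold of 4OHT over EtOH RPKM in Runx1 delta/delta cells (vertical, log axis) against delta/+ cells (horizontal, log axis), 1 point for each of 29 genes, with 95% counting intervals as bars; the dashed line marks equal folds. Points lie below the line for 9 genes and above it for the rest, and Fut7, Slc22a3 and Scin, with 1 to 3 reads in EtOH delta/delta cells, have the widest vertical bars.

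The largest 4OHT ratios toward delta/delta cells were those of Car7 (log2 1.11 on RPKM + 1), D18Ertd653e (1.07), Fut7 (0.96), Ccl6 (0.81) and Slc22a3 (0.71). Toward delta/+ cells they were those of Mllt6 (-1.30), Pi16 (-0.90), Slc2a6 (-0.81), Hpdl (-0.41) and Ttyh2 (-0.37). With both treatments in 1 limma fit on log2(RPKM + 1), 1 of the 30 genes passed a Benjamini-Hochberg adjusted p of 0.05 between genotypes, against 11.6% of all genes tested (4.68% higher and 6.91% lower in delta/delta cells), and 2 had an unadjusted p under 0.05. The common thresholds limit how far the 30 genes can differ between genotypes, above all in EtOH. A low share among them is therefore partly built in and is not a result about these genes. The gene that passed was Mllt6, lower in delta/delta cells in both treatments (log2 -0.69 in EtOH and -1.30 in 4OHT), with a fitted average of -0.99 (SE 0.21, limma adjusted p = 0.0447). Genotype equals the replicate number, so a genotype difference, for Mllt6 or any other gene, cannot be told apart from a difference between replicates. Its call was lost with median-ratio scaling (limma adjusted p = 0.0548), with no filter on low values (0.114) and without the treatment term (0.89). Fits on 3 libraries have no treatment term, so the change with 4OHT enters the genotype difference. For Mllt6 that difference was 0.30 without the 4OHT delta/+ library and -1.98 without the 4OHT delta/delta library. Cisd3, the next gene, had 0.818 and 5.06 RPKM in EtOH and 4OHT delta/delta cells and 6.64 and 20.1 RPKM in delta/+ cells; whether the authors' counting used strand is unknown here, and its part in the Mllt6 values was not tested.

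By gene order in RefSeq (GRCm38), all 30 genes were placed, on 15 chromosomes, and 1 pair lay within 10 protein-coding genes of each other: Fut7 and Clic3 on chromosome 2, with Abca2 between them. Abca2, a lipid transporter of the ABC family that was too high in EtOH to meet the thresholds, had 9.68 and 10.7 RPKM in EtOH and 164 and 127 RPKM in 4OHT, and rose by log2 3.70 (SE 0.17, limma adjusted p = 0.00124). Among the 21 genes from 10 before to 10 after Abca2, a window chosen after these values were seen, 9 that were not switched-on genes were tested and 5 rose, Abca2 itself included, and 1 fell, against 22.2% higher and 10.2% lower of all genes tested. Beside Abca2, Dpp7 rose by 1.03, Uap1l1 by 1.10, 2010317E24Rik by 1.55 and Phpt1 by 0.59, and Fbxw5 fell by 0.70 on the log2 scale. Ptgds, next to Clic3, stayed between 0 and 0.147 RPKM in all 4 libraries. Phpt1 did not pass with median-ratio scaling, and without the genotype term only Abca2 of these 6 genes passed.

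**Figure D3:**
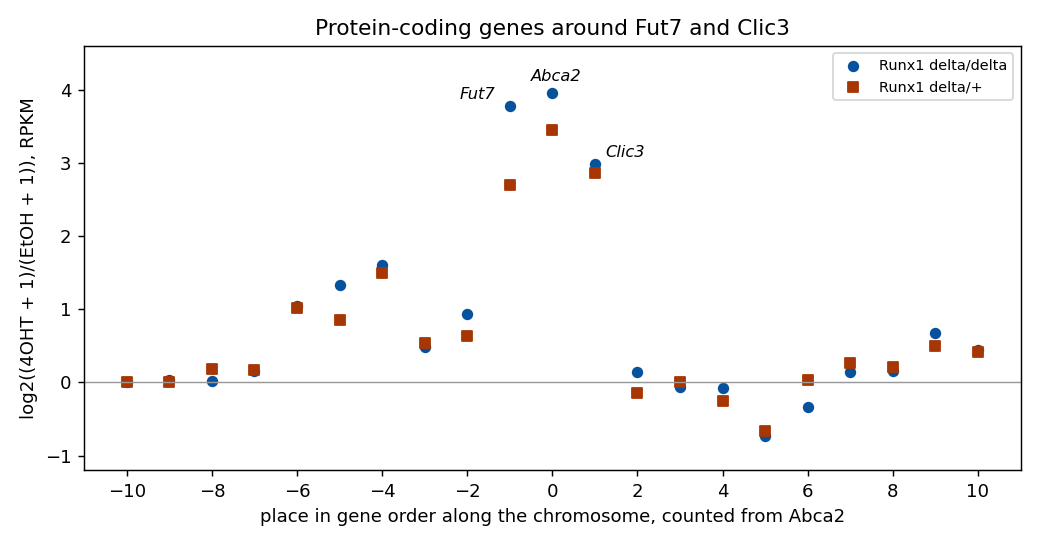
Log2 change with 4OHT (RPKM + 1) in each genotype for the 21 protein-coding genes around Abca2, by place in gene order. Fut7, Abca2 and Clic3, at places -1 to 1, have changes of 2.70 to 3.95, and the next gene on the right, Ptgds, 0.14 and -0.15.

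The genes directly before and after the 30 numbered 59 that were not themselves switched on, of which 34 were tested. Of these, 14 rose (41.2%) and 5 fell (14.7%), against 22.2% and 10.2% of all genes tested. Their median change was 0.42 (log2), where that of the whole table tested was 0.16. With median-ratio scaling, under which the median of all genes was -0.02, 10 of the neighbours rose and 5 fell. Of all 9584 genes tested under that scaling, 1196 were higher and 1327 lower. Without the genotype term 1 neighbour rose, Abca2, against 117 of all 9595 genes tested. Ccl9 and Ccl3, the chemokine genes on either side of Ccl6, rose by 1.11 (limma adjusted p = 0.0186) and 2.10 (0.017). Of the 30 genes, 6 overlap another gene in RefSeq: Ano8, Apobr, Atg9b, Cib2, D18Ertd653e and Rassf4, for which reads could be shared if strand was not used.

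Relatives of the switched-on genes were grouped by symbol into 20 families after the genes were listed. Of the 64 relatives tested, 19 rose (29.7%) and 8 fell (12.5%), near the 22.2% and 10.2% of all genes tested. In 7 families none passed, those of Fut7, Ano8, Hspb1, Ttyh2, Metrnl, Atg9b and Cib2. These families had few tested relatives, 3 for Fut7, 2 for Hspb1 and 1 for each of the others. Among carbonic anhydrases, Car3, Car5b and Car13 rose by 1.29, 1.03 and 0.73, while the erythroid enzymes Car1 and Car2 fell, Car2 by 1.31. In the gelsolin family of Scin, Avil rose by 2.07, Gsn by 1.04 and Flii by 0.49, and Capg fell by 0.78. Rassf1, Rassf3, Rassf5 and Rassf6, 4 of the 5 tested relatives of Rassf4, rose by 0.57 to 1.67. Clic4, Clcn3 and Slc22a23, relatives of Clic3, Clcn5 and Slc22a3, fell by 1.12, 1.18 and 1.27, and Slc2a3 rose by 0.92. Arid5a rose by 1.33. Rassf1 and Flii did not pass with median-ratio scaling, and none of these relatives passed without the genotype term.

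By the cell types in which they are best known, as background, 6 genes are immune (Fut7, Ccl6, Apobr, Clic3 and Slc2a6 among them), 11 belong to other specialised tissues, 12 are broad and 1 was not classed. Median 4OHT levels were 7.6 RPKM for the immune genes, 5.27 for the tissue genes and 4.48 for the broad genes. Marker genes of 16 cell types were read beside them. Of 18 markers of NK and cytotoxic T cells, 15 were under 1 RPKM in every library, and Klrd1, Klra8, Tbx21 and Cd3e were at 0 in all 4. Their sum was 2.71 and 3.06 RPKM in EtOH and 11.7 and 14.4 RPKM in 4OHT. Gzmc, a granzyme, and Nkg7, a granule protein, made up most of the 4OHT sums and rose by 2.12 and 2.05 (limma adjusted p = 0.0032 and 0.0101). Lck, a kinase of T cells, made up most of the sum in EtOH delta/delta cells, at 2.4 RPKM there and 0.542 to 0.696 RPKM in the other libraries, and did not pass. Cd3d and Cd3g reached at most 0.106 RPKM.

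Among 16 mast cell and basophil markers, 10 were tested and 4 rose: Prss34 by 3.23, Cpa3 by 2.85, Cyp11a1 by 2.45 and Ms4a2 by 2.23; Il4 fell by 0.97. Their sum went from 247 to 388 RPKM in delta/delta cells and from 286 to 164 RPKM in delta/+ cells. In delta/+ cells the sum followed Gata2 (182 and 63.5 RPKM) and Hdc (74 and 37 RPKM), neither of which passed, and not the 4 genes. Erythroid markers, which include globin, fell: 8 of 9 passed, with a median log2 change of -2.67 and a sum of 16641 and 5875 RPKM in EtOH against 2740 and 1376 in 4OHT. Megakaryocyte markers fell for 5 of 6 tested. Without the genotype term 3 erythroid and 2 megakaryocyte markers still passed, and none of the NK and T cell or mast cell lists. Of 12 monocyte and macrophage markers, 9 were under 1 RPKM in every library, and 1 was tested, Cd68, and did not pass. Of 3 neutrophil markers tested, 0 rose and 1 fell, Cxcr2. Of 4 stem and early progenitor markers tested, Angpt1 rose by 2.80, and Slamf1 fell by 2.93 and Ly6a by 1.18. None of these passed without the genotype term. The B cell and eosinophil lists, 10 and 7 genes, stayed under 1 RPKM in every library, and stromal and hepatocyte lists summed to 0 to 0.076 RPKM. Neuron markers summed to 14.5 and 22.1 RPKM in EtOH and 49.5 and 32.6 RPKM in 4OHT, of which Tubb3 was 13.5 to 49.2. Epithelial markers summed to at most 2.89 RPKM. The part of any other cell type in the switched-on genes was not tested.

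**Figure D4:**
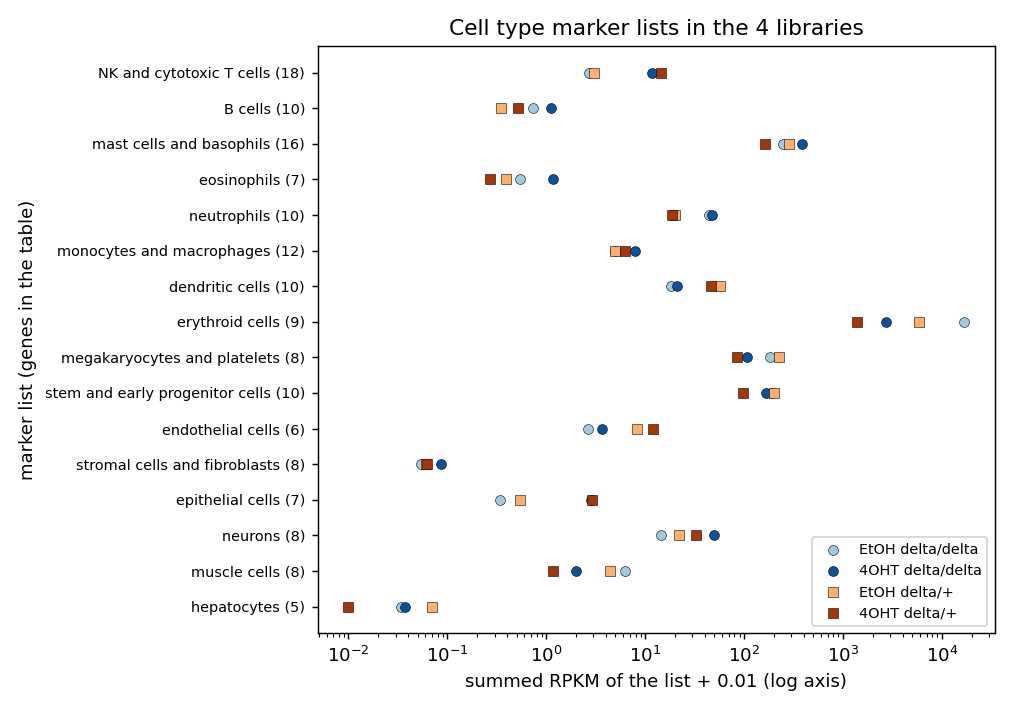
Summed RPKM of each of 16 cell type marker lists (rows, number of genes in the table in brackets) in the 4 libraries, with 0.01 added, on a log axis. Erythroid markers are the highest list and lower in both 4OHT libraries (2740 and 1376 against 16641 and 5875), and the NK and T cell list is higher in both (11.7 and 14.4 against 2.71 and 3.06).

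Pathway lists were read in the same way. Among cytokines 3 of 7 tested rose, Lif by 2.09, Osm by 2.04 and Tnf by 1.71, and Il4 and Il1b fell. Among chemokines and their receptors, where Ccl6 itself belongs, 3 of the 7 tested rose and 2 fell, Cxcl10 by 2.42 and Cxcr2 by 1.11. Of 10 NF-kB response genes 6 fell and none rose, with Relb down by 2.25, Nfkbia by 1.91 and Nfkb2 by 1.82. Of 13 STAT5 and cytokine response genes 5 rose, Il2ra by 2.18 and Etv5 by 1.91 among them, and Pim1 and Cish fell. Of 10 genes described as RUNX1 targets 4 rose, Hhex by 2.05, Cebpa by 1.96, Myb by 1.82 and Il3ra by 1.24, and 4 fell. Of 5 oestrogen receptor response genes 2 rose, Cited1 by 1.63 and Xbp1 by 1.04, and Esr1 fell by 0.61. Esr1, which encodes an oestrogen receptor, had 194 and 119 RPKM in EtOH and 4OHT delta/delta cells and 274 and 192 RPKM in delta/+ cells. Whether its reads came from the mouse gene or from an engineered protein was not tested. Over all lists, cell type markers included, 25 of the 89 tested genes outside the 30 rose (28.1%) and 32 fell (36%), against 22.2% and 10.2% of all genes tested, so the share that rose was near that of all genes; without the genotype term 2 rose and 7 fell.

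The thresholds divide genes of similar levels. Just inside the EtOH threshold lay Frmd6 at 0.98 RPKM, Cib2 at 0.927 and Ccbl2 at 0.911, the higher of the EtOH libraries in each. Just outside it lay Aqp11 at 1.01, Gfpt2 at 1.08 and Ms4a2 at 1.09. Elac1 at 3.03 RPKM, Atg9b at 3.08 and Pi16 at 3.1, the lower 4OHT library, were just inside the 4OHT threshold, and Endog at just under 3, Paqr8 at 2.99 and Stx3 at 2.96 just outside. Taken in 1 genotype, 127 rows met the thresholds in delta/delta cells and 66 in delta/+ cells. The 33 rows that met them in both are 26.0% of the first and 50% of the second.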

How the data were processed

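RNA of 4 libraries was analysed from 1 deposited table. Its values are the authors' RPKM, per the file headers, in 1 column a library, beside their own comparisons, not used here. The submitters' processing notes name mouse build mm9. Not given in the sources used here: aligner, annotation, counting rule, strand. The labels name a TruSeq or NEBNext kit, with no library assigned.

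Low RPKM values are whole multiples of what 1 read is worth, which gave read numbers (tolerance 0.02 reads) and depth. What 1 read is worth depends on the gene length used. Among the switched-on genes, that length lay within 5 bases of an annotated transcript for only 13. For the others it had no such match, so their read numbers and fold intervals rest on an unchecked length. Fold intervals are exact conditional binomial at 95% and cover counting error only. limma 3.58.1 (R 4.3.3) was run on log2(RPKM + 1) over the 9595 genes whose mean reached 1 RPKM, fitting genotype beside treatment under a trended prior, with two-sided p adjusted by Benjamini-Hochberg over all of them and called at 0.05; it was tested on simulated data. Values on this scale understate changes of low genes. Genotype equals the replicate number and is a factor in the labels; libraries sharing a number deviated together (correlation 0.664). There was 1 residual degree of freedom, and the prior had 4.37. Of 3113 genes called with 4OHT, 2130 were higher and 983 lower; with median-ratio scaling 1196 were higher and 1327 lower.

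The members, and all gene lists, were chosen with earlier results of these data known; function groups, expression classes, families and the window around Abca2 were set after values were seen. Named genes were the members with the highest 4OHT levels, overall and by function, those with the most unequal 4OHT levels between genotypes, those nearest the thresholds, and up to 3 genes a list with the smallest p; others were chosen after their values were seen. Alternatives were other pseudocounts, filters, scalings, thresholds and models, and each library left out. Values of 1 of the 30 genes are not reported here.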

Additional observations from a re-analysis of the deposited data

How the results depend on the processing

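The number of switched-on genes was 9 with EtOH under 0.5 RPKM, 8 with 4OHT at least 5 RPKM, 25 with median-ratio scaling (all among the 30) and 41 with values rescaled to sum to 1 M, of which 8 were among the 30; that rescaling raises values against fixed thresholds. Leaving out 1 library gave 34 to 90; it was 90 without EtOH delta/+, 59 without 4OHT delta/delta and 55 without 4OHT delta/+. Genes called with 4OHT numbered 3113, 233 with no replicate block (no genotype term), and 39 to 251 with 1 library left out and no second term, where a treatment or genotype with 1 library is assumed to vary like the other. Genes called between genotypes by limma numbered 1112, and 646 at a mean of at least 5 RPKM. They numbered 0 with no filter (3906 at unadjusted p under 0.05) and with no treatment term (880). Fits with 1 library left out leave 1 library in a genotype, and their counts between genotypes are not given. Of the 30 genes, 0 were called between genotypes with no filter, at a mean of at least 5 RPKM (5 tested), with median-ratio scaling and with no treatment term. With the filters and scaling 0 to 2 had an unadjusted p under 0.05. The median log2 ratio in 4OHT was -0.07, -0.08 with a pseudocount of 0.1 and -0.04 with median-ratio scaling. List genes that rose numbered 25, 2 with no replicate block and 0 to 11 with 1 library left out (an alternative added after seeing the data), and those that fell 32, 20 at a mean of at least 5 RPKM, 7 with no replicate block and 4 to 11. In the 200 bases nearest the start, the RUNX letters were found for 5 of 24 genes (20.8%, against 17.6% of all genes). The ETS letters were found for 3 (12.5% against 20.3%) and the C/EBP letters for 1 (4.17% against 7.78%). GATA, AP-1, STAT and MYC letters were found for 0, against 13.6%, 6.18%, 6.27% and 6.19% of all genes. By construction, stricter thresholds can only lower the number of switched-on genes. Leaving out a library drops 1 condition and can only raise that number. A shorter promoter window can only lose motifs. The cause of the other shifts was not tested, other than fewer samples or genes.

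Differences between genotypes of the 30 genes changed sign in some settings, Mllt6, the gene that passed, included (0.30 without 4OHT delta/+). With a pseudocount of 0.1 they were -0.07 for 1110032F04Rik, -0.22 for Car7, 0.09 for Card6, 0.06 for Pcsk6 and Rassf4 and -0.58 for Slc22a3; with median-ratio scaling 0.00 for Apobr, Atg9b and Card6 and 0.03 for Pcsk6, and Flt3 changed by -0.11 with 4OHT. With 1 library left out, genotype differences changed sign for each of the 29 genes given here, in fits with no treatment term where the treatments are then unbalanced; on the log2 scale they ranged as 1110032F04Rik -1.08 to 1.21, Ano8 -0.96 to 0.59, Apobr -0.75 to 0.68, Arid5b -1.13 to 0.74, Atg9b -0.86 to 0.82, Car7 -1.71 to 2.18, Card6 -0.97 to 0.91, Ccbl2 -1.21 to 0.64, Ccl6 -0.98 to 1.47, Cib2 -0.97 to 0.65, Clcn5 -0.85 to 0.64, Clic3 -1.64 to 1.34, D18Ertd653e -0.47 to 1.89, Elac1 -0.83 to 0.66, Frmd6 -0.81 to 0.73, Fut7 -1.47 to 2.31, Hpdl -1.54 to 0.95, Hspb1 -1.25 to 1, Lipt2 -1.06 to 0.53, Metrnl -2.02 to 2.36, Mllt6 -2.28 to 0.30, Pcsk6 -1.04 to 1.03, Pi16 -1.86 to 0.87, Ptpn13 -1.09 to 1.72, Rassf4 -1.22 to 1.15, Scin -1.97 to 1.52, Slc22a3 -1.79 to 2.08, Slc2a6 -1.62 to 0.78 and Ttyh2 -1.63 to 1.03. The 30 genes were chosen by their change with 4OHT, and these fits mix that change into the genotype difference. Their sign changes therefore do not measure how stable the genotype differences are. Changes with 4OHT that changed sign with 1 library left out ranged as Flt3 -0.81 to 0.98, H2-Ab1 -1.02 to 0.59, Pecam1 -0.24 to 1.30, Rcan1 -0.23 to 0.12, S100a8 -0.82 to 0.77 and S100a9 -0.17 to 0.71. Depth limits the delta/delta folds of Fut7, Scin and Slc22a3, which rest on 1, 2 and 3 reads in EtOH.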
